A study of Homo sapiens with 6 samples.

Results

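RN7SK, the gene of the 7SK small nuclear RNA, and its RN7SKP pseudogene copies held 22 of the 1316 GAPDH peaks deposited for MOLM-13 cells. Members were all peaks whose annotated symbol was 7SK or began with RN7SK, and they lay at 18 of 1108 distinct positions and on 11 of 947 annotated genes: RN7SK itself and 10 copies. MOLM-13 (written Molm13 in the labels) is an established line of human leukaemia cells, labelled AML for acute myeloid leukaemia. GAPDH, an enzyme of glycolysis that also binds RNA, was crosslinked to RNA with UV light, recovered with an antibody, and the bound RNA was shortened by RNase T1, an enzyme that cuts behind G, and sequenced (CLIP-seq). The sugar of the medium was galactose, a low amount of glucose or the normal amount of glucose, and the labels name no genetic change and no further agent in any group. Each of these 3 conditions had 2 samples, joined by the authors into 1 list of peak positions. The lists held no read counts, scores, strands or RNA levels. The spread between samples could therefore not be measured, no difference between conditions was tested, and more 7SK RNA in the cells cannot be told apart from more contact of each molecule with GAPDH.

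7SK RNA is a short nuclear RNA made by RNA polymerase III. It is capped and held by MEPCE and LARP7, and together with HEXIM1 or HEXIM2 it keeps the kinase P-TEFb (CDK9 with cyclin T) inactive, which restrains the release of RNA polymerase II into elongation. Like other RNA polymerase III transcripts it has left many pseudogene copies across the genome, whose sequence resembles the RNA and most of which are thought not to be made from a promoter of their own.

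The sequence of hg38 under the RN7SK peaks is shown first, since it carries both ends of the RNA. RN7SK lay on the plus strand of chromosome 6, chr6:52995620-52995951 in RefSeq, and places below count from 1 at its first base to 332 at its last, with -1 for the base just before the first. The first line is the peak common to the 3 lists, the second that found in normal glucose only, and the third the low glucose peak at the 3′ end. Capitals mark the bases that belong to the RNA.
RN7SK 5′ end, chr6:52995568-52995668, plus strand: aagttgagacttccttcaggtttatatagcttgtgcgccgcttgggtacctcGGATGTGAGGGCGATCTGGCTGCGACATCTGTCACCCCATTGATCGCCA
RN7SK inside, chr6:52995731-52995831, plus strand: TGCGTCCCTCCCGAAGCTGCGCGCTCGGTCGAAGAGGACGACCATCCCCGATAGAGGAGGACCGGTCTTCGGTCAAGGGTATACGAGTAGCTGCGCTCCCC
RN7SK 3′ end, chr6:52995897-52995997, plus strand: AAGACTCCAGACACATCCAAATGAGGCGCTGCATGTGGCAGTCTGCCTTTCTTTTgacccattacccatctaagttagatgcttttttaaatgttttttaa

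Narrow peaks on different copies had their middle at the same few places of the RNA, and wide peaks had an edge at a matching distance from them. The sequence around the 5 places met on more than 1 gene in either way is given next, because it shows how far the copies differ from RN7SK there. RN7SKP79 and RN7SKP180 are shown only through their wide peaks, and so is RN7SKP255 except at place 162. Each line starts 10 bases before the place and runs 29 bases past it, on the strand of the copy. RN7SKP176 is cut at 19 bases past it, since it lies in a 3′ untranslated exon of PLCG2. In the RN7SK line the capital is the base at the place itself. In the other lines capitals are bases that differ from the aligned base of RN7SK, and bases with no aligned partner are in lower case. At place -2, just before the 5′ end:
RN7SK, chr6:52995608-52995647, plus strand: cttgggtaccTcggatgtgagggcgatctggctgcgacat
RN7SKP255, chr14:89712499-89712538, plus strand: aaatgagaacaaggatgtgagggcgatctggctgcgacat
RN7SKP37, chr10:21933131-21933170, plus strand: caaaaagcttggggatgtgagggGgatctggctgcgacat
RN7SKP79, chr5:6848435-6848474, minus strand: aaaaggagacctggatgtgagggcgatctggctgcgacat
RN7SKP9, chr13:99205696-99205735, plus strand: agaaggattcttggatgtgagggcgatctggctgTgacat

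At place 51, where RN7SK is printed for comparison and had no peak middle of its own:
RN7SK, chr6:52995660-52995699, plus strand: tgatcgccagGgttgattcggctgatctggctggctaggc
RN7SKP176, chr16:81961966-81961995, plus strand: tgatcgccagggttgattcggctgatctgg
RN7SKP230, chr5:109699755-109699794, minus strand: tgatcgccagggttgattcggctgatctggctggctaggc
RN7SKP255, chr14:89712551-89712590, plus strand: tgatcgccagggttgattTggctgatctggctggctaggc
RN7SKP90, chr11:16842293-16842332, plus strand: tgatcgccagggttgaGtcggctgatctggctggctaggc

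At place 131, again with RN7SK for comparison only:
RN7SK, chr6:52995740-52995779, plus strand: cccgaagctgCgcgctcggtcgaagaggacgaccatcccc
RN7SKP71, chr12:112267197-112267236, plus strand: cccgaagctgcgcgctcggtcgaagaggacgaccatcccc
RN7SKP79, chr5:6848303-6848342, minus strand: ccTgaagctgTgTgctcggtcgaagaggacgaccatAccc
RN7SKP180, chr17:72663993-72664032, minus strand: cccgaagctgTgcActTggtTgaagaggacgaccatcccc

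At place 162, met on RN7SK and on a single copy:
RN7SK, chr6:52995771-52995810, plus strand: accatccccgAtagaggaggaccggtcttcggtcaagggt
RN7SKP255, chr14:89712662-89712701, plus strand: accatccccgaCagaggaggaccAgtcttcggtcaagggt

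At place 219, with RN7SK for comparison only:
RN7SK, chr6:52995828-52995867, plus strand: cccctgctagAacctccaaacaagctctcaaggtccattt
RN7SKP9, chr13:99205916-99205955, plus strand: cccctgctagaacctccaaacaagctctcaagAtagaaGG
RN7SKP180, chr17:72663905-72663944, minus strand: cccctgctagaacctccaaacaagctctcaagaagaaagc
RN7SKP176, chr16:81962134-81962163, plus strand: cccctgctGgaacctccaaacaagctctca

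The galactose list held 2 peaks of the family among its 337 peaks, the low glucose list 5 of 484 and the normal glucose list 15 of 495. The share of family peaks was 0.593% for galactose (95% Clopper-Pearson interval 0.0720% to 2.13%). It was 1.03% for low glucose (0.336% to 2.39%) and 3.03% for normal glucose (1.71% to 4.95%). The intervals cover counting error over peaks only. Galactose had 1 peak on RN7SK and 1 on a copy. Low glucose had 2 on RN7SK and 3 on copies, and normal glucose 3 on RN7SK and 12 on copies, so the lists differed more in copies than in RN7SK itself. The number of copies with a peak was 1, 3 and 9. Without the peaks that were also annotated to a gene outside the family, the lists held 1, 3 and 3 peaks. This step removed every normal glucose peak on a copy, since each of those copies lay inside another gene. For that list it only repeats the split into RN7SK and copies and cannot show a part of the host genes.

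**Figure D1:**
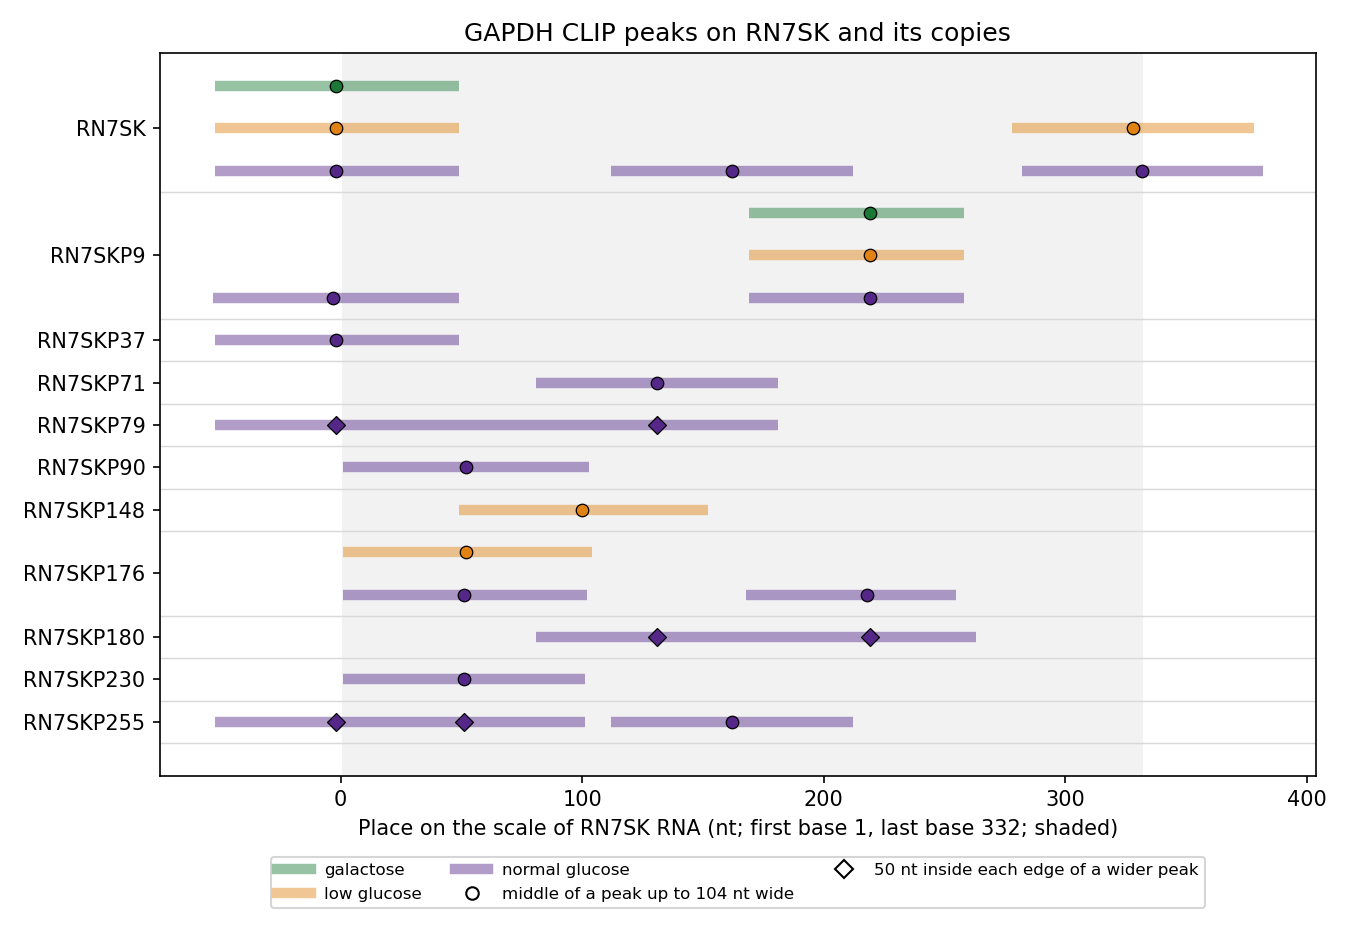
Peaks on RN7SK and on 10 copies, each drawn on the scale of RN7SK RNA (horizontal axis, nt; the shaded span is the RNA, 1 to 332), with 1 line per gene and list and the list shown by colour. Circles are the middles of peaks of up to 104 nt and diamonds lie 50 nt inside each edge of a wider peak; marks of different copies stand above one another near -2, 51, 131, 162 and 219.

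On RN7SK itself, the peak at the 5′ end had the same start and end in all 3 lists. Its middle, a T at place -2, lay just before the RNA, and the peak covered bases 1 to 49. The 3′ end carried a peak in low glucose (middle at place 328) and in normal glucose (chr6:52995901-52996001, middle at 332, the last base of the RNA), and none in galactose. The peak inside the RNA, with its middle at place 162, was in the normal glucose list only. Together the peaks of RN7SK covered 49 of its 332 bases in galactose, 104 when glucose was low and 201 when it was normal (60.5%). Each of these peaks was also annotated to a second Ensembl entry of the same RNA.

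Among the copies, the most widely shared was RN7SKP9 (ENSG00000201793) on chromosome 13. Its peak at chr13:99205876-99205976, with the middle at place 219, had the same start and end in every list, as the 5′ peak of RN7SK did. Normal glucose added a peak at the start of this copy, chr13:99205655-99205756, with its middle at place -3. RN7SKP176 (ENSG00000260682) on chromosome 16 had a peak at place 52 in low glucose, chr16:81961926-81962029, and one at place 51 in normal glucose, chr16:81961926-81962027, where normal glucose also had chr16:81962093-81962193 at place 218. RN7SKP148 (ENSG00000222111, chr5:175628236-175628339) had a peak in low glucose alone, at place 100, and it was the only copy whose peak was missing from normal glucose.

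The other 7 copies had peaks in normal glucose alone. RN7SKP255 (ENSG00000200312) held a peak of 153 nt, chr14:89712459-89712611, and another of 101 nt at chr14:89712622-89712722 with its middle at place 162. RN7SKP79 (ENSG00000200243) held the widest peak of the family, 233 nt at chr5:6848282-6848514 on the minus strand. RN7SKP180 (ENSG00000200783) held a peak of 189 nt at chr17:72663884-72664072, also on the minus strand. The remaining copies had a single narrow peak each. For RN7SKP230 (ENSG00000202512) it was chr5:109699734-109699834, minus strand, place 51. For RN7SKP37 (ENSG00000201364) it was chr10:21933091-21933191, plus strand, place -2. For RN7SKP90 (ENSG00000199883) it was chr11:16842253-16842355, plus strand, place 52. For RN7SKP71 (ENSG00000201428) it was chr12:112267157-112267257, plus strand, place 131.

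In width, 14 of the 22 peaks had the 101 nt that a single crosslink site extended by 50 nt on each side gives (56.5% of all peaks of the series), 5 had 102 to 104 nt, and 3 were wider than 150 nt (16.3% of all peaks). No peak of the series was narrower than 101 nt. For the 3 wide peaks it was assumed that joined sites were extended by the same 50 nt, which the sources do not state, so that their outermost sites would lie 50 nt inside each edge. By the same rule the 5 peaks of 102 to 104 nt would also hold joined sites, such as 99 and 102 on RN7SKP148. For these the middle was used as 1 site, and the bases before and after a site were read from it. The count was thus 6 assumed sites beside the 19 middles of narrow peaks, or 25 sites in all. Galactose had 2 of them, low glucose 5 and normal glucose 18. On the scale of the RNA, which has 332 bases, these 25 sites fell into 7 narrow groups that together spanned 14 nt. The group at -3 to -2 lay in front of the RNA and not among its bases. Sites from more than 1 gene were found in 5 of the 7 groups, which together held 22 of the 25 sites. A position shared by lists counted once per list, as did RN7SK at -2 and RN7SKP9 at 219, each in all 3 lists. Without the assumed sites, 4 groups held more than 1 gene and 15 of the 19 middles, and the place 131 was left with RN7SKP71 alone.

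The group at -3 to -2 was the largest, with 7 sites on 5 genes (RN7SK, RN7SKP9, RN7SKP37, RN7SKP79 and RN7SKP255). Of these sites galactose and low glucose had 1 each and normal glucose had 5. In galactose and low glucose only RN7SK was marked there, whereas 4 copies joined it in normal glucose, RN7SKP9 and RN7SKP37 by the middle of a narrow peak and RN7SKP79 and RN7SKP255 by an assumed site. The group at 51 to 52 had 5 sites on RN7SKP176, RN7SKP230, RN7SKP255 and RN7SKP90, 1 of them in low glucose and 4 in normal glucose. The group at 131 had 3 sites (RN7SKP71, RN7SKP79 and RN7SKP180), all in normal glucose. The group at 162 had 2 sites, on RN7SK and RN7SKP255, also both in normal glucose. The group at 218 to 219 had 5 sites on RN7SKP9, RN7SKP176 and RN7SKP180, of which normal glucose had 3 and the other lists 1 each.

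**Figure D2:**
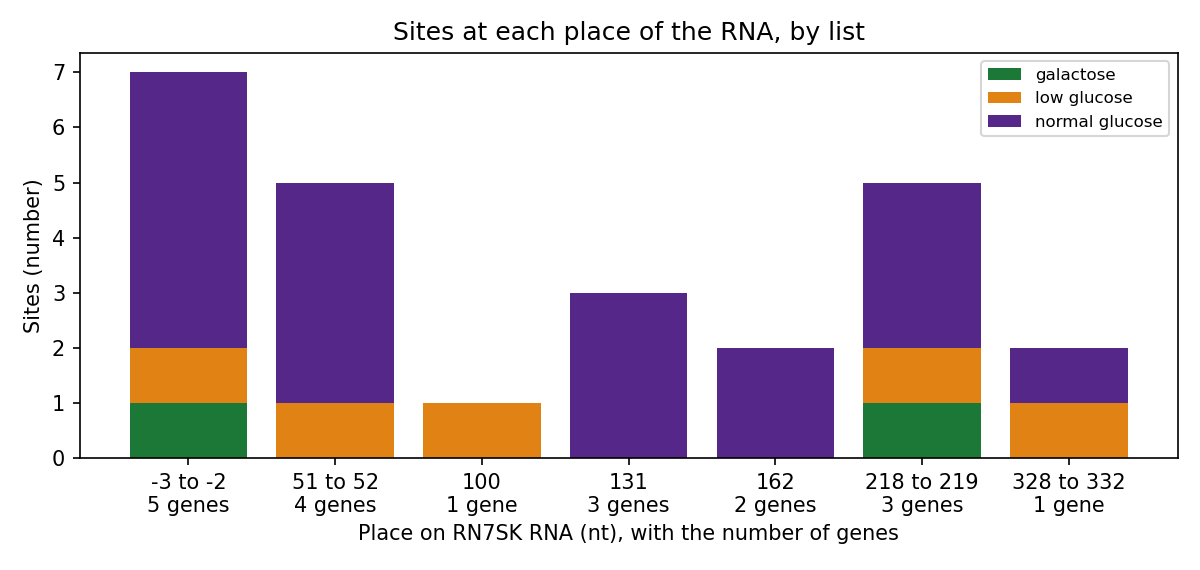
Number of sites (vertical axis) in each of the 7 groups of places along RN7SK RNA (horizontal axis, nt, with the number of genes in each group), stacked by list, assumed sites of wide peaks included. Normal glucose had sites in 6 of the 7 groups, low glucose in 5 and galactose in 2.

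RN7SK had no peak middle of its own at 51 to 52, 131 or 218 to 219, although 8 copies had a site there, 3 of them (RN7SKP79, RN7SKP180 and RN7SKP255) through assumed sites alone. The reverse held at the 3′ end, where the 2 sites at 328 to 332 were both on RN7SK and none on a copy. The single site at 100 was that of RN7SKP148. When all peaks of the family were laid onto the RNA, they covered 139 of its 332 bases with the galactose list (41.9%), 297 with the low glucose list (89.5%) and 314 with the normal glucose list (94.6%). Up to 8 normal glucose peaks lay over the same base. The bases covered include those by which lone crosslink sites were extended to form peaks. The 25 sites themselves, assumed ones included, lay in 7 groups that together spanned 14 nt, and the group at -3 to -2 lay in front of the 332 bases. The coverage in low and normal glucose therefore does not show contact with GAPDH over most of the RNA.

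HEXIM1 is known to bind GATC (GAUC in the RNA) in the 5′ hairpin of 7SK. These 4 letters, which read the same on both strands, were found in RN7SK at places 13, 42 and 64. The 5′ peak common to all 3 lists held the first and second of these. GATC was also in every peak of a copy at -3 to -2 and at 51 to 52, the wide ones included, in that of RN7SKP148 at 100 and in that of RN7SKP176 at 218. It was not in the peaks of RN7SK at 162, 328 and 332, RN7SKP255 at 162, RN7SKP9 at 219 and RN7SKP71 at 131, nor in the wide peak of RN7SKP180. Of the 14 peaks of 101 nt in the family 6 held GATC (42.9%), beside 26.1% of all peaks of that width, where identical positions in several lists count once per list. A match of letters is a description of the sequence and not a binding site.

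The copies were so alike over the peaks that a read could often have come from another copy. Over 50% of the 30-mers of a peak had a further exact match elsewhere in the genome, here called recurrent, for 12 of the 22 peaks, beside 19.1% of all peaks in the series. Galactose had 1 of 2 such peaks (18.1% of all peaks of that list), low glucose 2 of 5 (13.6%) and normal glucose 9 of 15 (25.3%). Over all peaks of the series the normal glucose list held the most recurrent sequence. In the family the order depends on what is counted, as the sites below show. How reads that fit several places were handled is not given in the sources used here, and its part in the counts was not tested.

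Identity to RN7SK over the bases of a peak ranged from 82.7% on RN7SKP148 (18 of 104 bases differed) to 99.0% on RN7SKP230 (1 of 101) and on the wide RN7SKP255 peak (1 base). RN7SKP180 differed at 13 of 180 bases and RN7SKP79 at 8 of 181. All 30-mers of the RN7SK peak inside the RNA recur, in contrast to 30.6% of those of its 5′ peak and 11.1% of those of each 3′ peak. Most 30-mers of the 5′ and 3′ peaks of RN7SK, which reach into the flanks of the gene, thus occur only once. Counted inside the RNA alone, 100% of the 30-mers of the 5′ peak recur. For the 3′ peaks this was 30.8% in low glucose and 36.4% in normal glucose. The normal glucose peak at the start of RN7SKP9 went from 27.4% over the whole peak to 100% inside the copy. The recurrent counts above were made over whole peaks, flanks included, and leave these 5′ peaks out. The RN7SKP37 peak held no recurring 30-mer at all.

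Reads in this kind of assay start next to the crosslinked base, so the 30 bases from each site onward were also looked up. They occur once in the genome for 16 of the 25 sites (galactose 1 of 2, low glucose 3 of 5, normal glucose 12 of 18) and more often for 9. On copies, 2 of 19 sites were followed by the very 30 bases of RN7SK: RN7SKP230 at place 51, whose 30 bases occur 13 times in the genome, and RN7SKP71 at 131, whose 30 bases occur 4 times. At 51 to 52 the bases after the RN7SKP255 site occur 12 times, those after both RN7SKP176 sites 4 times, and those after the RN7SKP90 site once. At 218 to 219 the 30 bases were unique for all 5 sites. There RN7SKP9 and RN7SKP180 match RN7SK from the site on through the stretch ctctcaag and depart from it after that, as the lines printed above show.

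At -3 to -2 the 30 bases were unique for all 4 copies and occur 3 times for RN7SK, but this rests on the 2 or 3 bases in front of the RNA, where the flanks differ. Counted from base 1 to base 30 of the RNA, the sequences of RN7SKP79 and RN7SKP255 are those of RN7SK and occur 7 times in the genome. The same stretch of RN7SKP9, which differs from RN7SK at 1 base, occurs 3 times. That of RN7SKP37, which also differs at 1 base, occurs once. RN7SKP37 is therefore the copy at the 5′ end whose own first 30 bases set it apart from every other place in the genome.

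RNase T1 leaves ends after G, and the base before each site was read on the strand of the gene. Of the 14 peaks of 101 nt, 8 had a G before the middle (57.1%, Clopper-Pearson interval 28.9% to 82.3%), beside 40.9% of the 638 such peaks of the series whose genes lie on 1 strand. G makes up 28.0% of RN7SK RNA. The split followed the place. Aligned copies share most of their bases there, and some positions were in several lists. Sites at 1 place are therefore not separate observations, although the interval counts peaks as if they were. Counting the assumed sites too, a G preceded all 5 sites at 51 to 52, all 3 at 131, both at 162 and all 5 at 218 to 219, and none of the 10 sites at -3 to -2, 100 and 328 to 332. This count reads the start and end of a peak as 1-based. With both counted from 0, which moves the middle by 1 base, 2 of the 14 peaks had a G there (14.3%). If a read began right behind a cut, and the site is the base in front of the read, the G would be the site itself. At the middle of the 101 nt peaks the base was A on RN7SK and RN7SKP255 at 162 and on RN7SKP9 at 219. It was C on RN7SKP71, T or C at the ends of RN7SK, and G on RN7SKP230, RN7SKP37 and RN7SKP176 at 218. A G before the middle is thus no mark of a cut by itself. Whether cutting by RNase T1 set the internal places was not tested.

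Between conditions, both galactose peaks were met by a peak of low glucose at the same position (2 of 2, beside 57.0% of all galactose peaks) and by one of normal glucose (2 of 2, beside 41.2%). Of the 5 low glucose peaks, 2 were met by galactose (39.7% of all low glucose peaks were) and 4 by normal glucose (27.9%). Of the 15 normal glucose peaks, 2 were met by galactose (28.3%) and 4 by low glucose (27.3%). Merged where they overlapped, the 22 peaks formed 16 regions. Of these, 2 were in all 3 lists (11.0% of all 951 merged regions of the series), 2 in 2 lists (15.7%) and 12 in 1 list (73.3%). Normal glucose alone held 11 (34.1% of all merged regions), low glucose alone 1 (27.5%) and galactose alone 0 (11.7%).

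Counted by place on the RNA instead, a normal glucose peak lay within 2 nt of the place of a low glucose peak on any copy in 8 of 15 cases, against 4 by overlap, and within 2 nt of the place of a galactose peak in 5 of 15, against 2. The other counts did not rise: low glucose peaks met by normal glucose were 3 of 5 by place and 4 by overlap, and the rest stayed at 2. Over all lists, 15 of the 22 peaks had their middle within 2 nt of that of a peak on another copy.

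The copies with a peak were compared with the copies that had none. GENCODE release 44 holds 299 entries for copies, of which 256 aligned with RN7SK over at least 50 bases, and 10 of these had a peak. Their identity to RN7SK over aligned bases ranged from 81.9% (RN7SKP148) to 94.0% (RN7SKP9), with a median of 88.3%, beside a median of 83.6% (67.0% to 95.3%) in the 246 copies without a peak. The median of aligned bases was 305 with a peak and 293 without. Ranked by alignment score, none of the 10 copies closest to RN7SK had a peak, while 5 of the closest 20 and 8 of the closest 30 did. RN7SKP9 ranked 13, RN7SKP255 16, RN7SKP176 18, RN7SKP71 19, RN7SKP79 20, RN7SKP37 21, RN7SKP180 23 and RN7SKP90 25. The others, RN7SKP230 and RN7SKP148, ranked 88 and 137, so closeness to RN7SK did not mark out every copy with a peak.

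**Figure D3:**
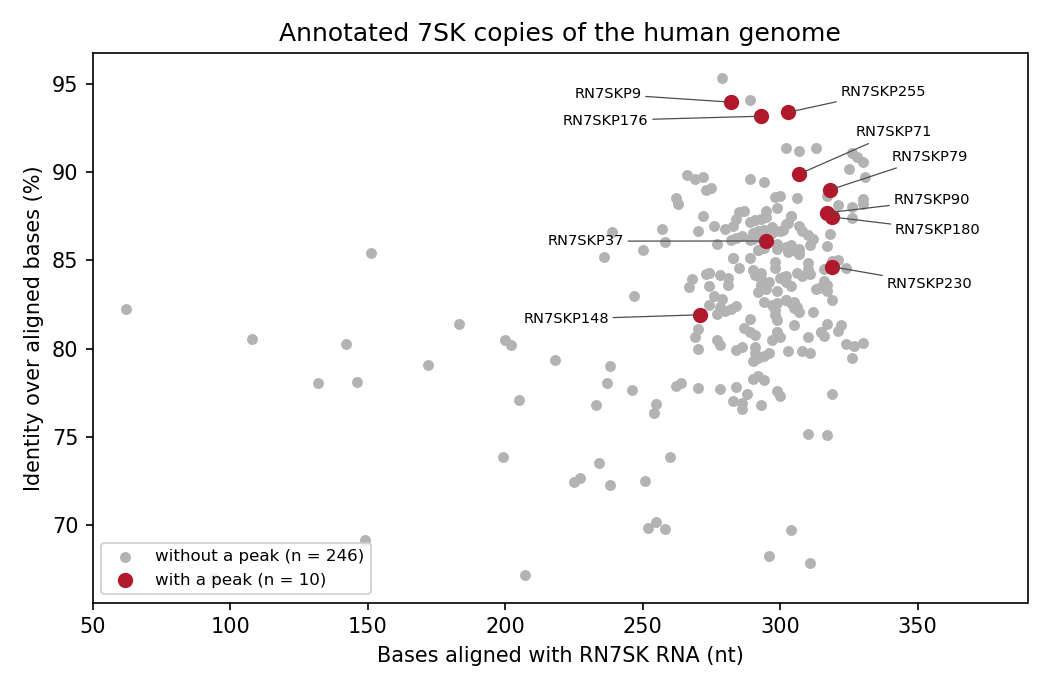
Identity to RN7SK over aligned bases (vertical axis, %) against the number of aligned bases (horizontal axis, nt) for 256 annotated copies; red points are the 10 copies with a peak and grey points the 246 without. The red points lie between 81.9% and 94.0% identity and between 271 and 319 aligned bases, with grey points around and above them.

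By location, 9 of the 10 copies with a peak lay inside another annotated gene (90.0%), beside 57.7% of the copies without a peak. Of the 9 host genes, 3 are read on the same strand as the copy: UBAC2 (around RN7SKP9, in an intron), SLC39A11, a zinc transporter gene (around RN7SKP180, in an intron), and PLCG2, a phospholipase of blood cell signalling (around RN7SKP176, in a 3′ untranslated exon). On the opposite strand, and all in introns, were LINC02196 (RN7SKP79), MAN2A1 (RN7SKP230), DNAJC1 (RN7SKP37), PLEKHA7 (RN7SKP90), HECTD4 (RN7SKP71) and a long noncoding RNA gene without a symbol (RN7SKP255). RN7SKP148 lay in no other gene. The host genes had 15 peaks in the 3 lists, and all 15 were those on the 7SK copy: no host gene had a peak elsewhere. Over all annotated protein-coding genes, 2.79% had a peak in any list. With 9 hosts, chosen for the peak on the copy, the count is near that background and no result about them. The copies with peaks in more than 1 list, RN7SKP9 and RN7SKP176, both lay in the sense of their host, and RNA of the copy cannot be told apart from RNA of the host there. Since the lists held no strands, the same limit holds for the copies on the strand opposite their host.

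**Figure D4:**
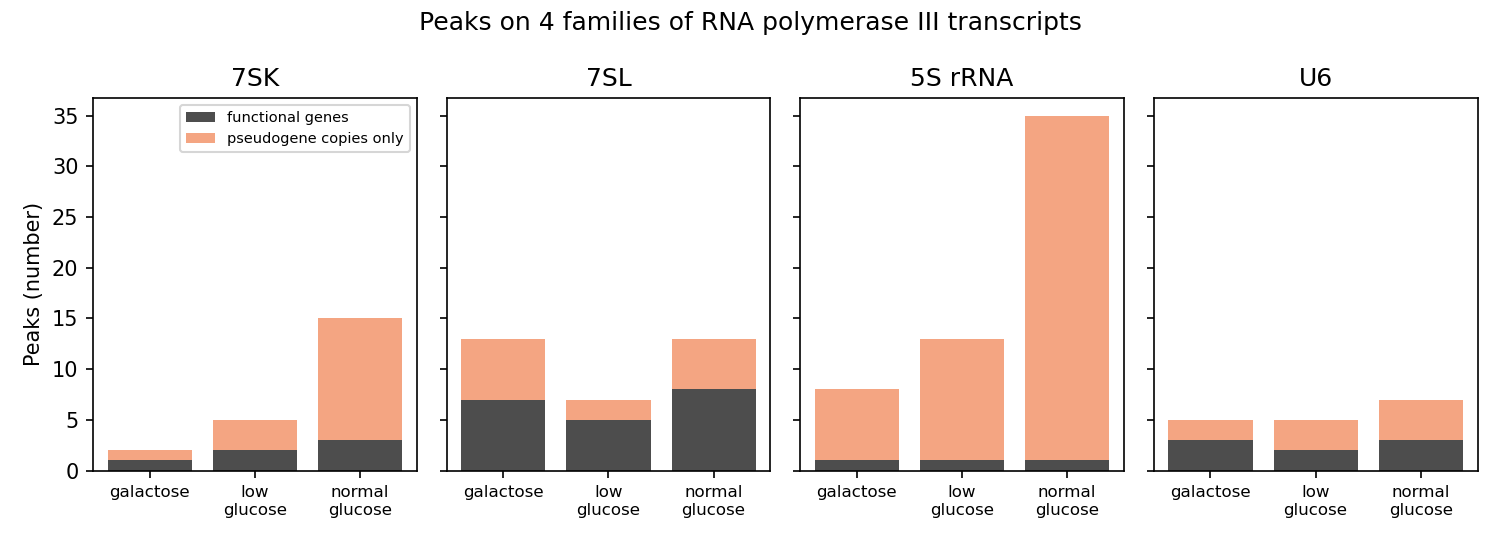
Number of peaks (vertical axis) in galactose, low glucose and normal glucose for 4 families of RNA polymerase III transcripts, split into peaks on functional genes and peaks on pseudogene copies only. The 7SK family went from 2 to 5 to 15 peaks and the 5S rRNA family from 8 to 13 to 35, both mostly on copies, while 7SL had 13, 7 and 13 peaks and U6 had 5, 5 and 7.

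Other RNA polymerase III families were set beside 7SK to see whether its order across lists was its own. The 7SL family, the RNA of the signal recognition particle, had 13, 7 and 13 peaks in the same order of lists, with 7, 5 and 8 on its functional genes. For 5S rRNA the numbers were 8, 13 and 35, of which 1 in each list was on a functional gene. U6, the small nuclear RNA of the spliceosome, had 5, 5 and 7 peaks. As shares of the lists, 7SL had 3.86%, 1.45% and 2.63%, 5S rRNA 2.37%, 2.69% and 7.07%, and U6 1.48%, 1.03% and 1.41%. The order galactose, low glucose, normal glucose was thus seen for 7SK and for 5S rRNA, in both mainly through copies, and was not particular to 7SK. Copies with a peak numbered 10 of 294 annotated names for 7SK, 7 of 677 for 7SL, 39 of 503 for 5S rRNA and 4 of 1271 for U6.

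Of the genes for proteins that hold, use or make 7SK RNA, 1 of 51 had a peak in any list, beside 2.79% of all 20046 annotated protein-coding genes, a share near this background and no result about the set. The 51 genes were 8 of the 7SK particle and P-TEFb (MEPCE, LARP7, HEXIM1, HEXIM2, CDK9, CCNT1, CCNT2 and SSB), 9 of proteins that bind 7SK outside P-TEFb or release it, 14 of elongation control and 20 of the factors and polymerase subunits that make it. None had a peak in galactose (1.10% of all protein-coding genes) or low glucose (1.54%), and 1 had in normal glucose (1.38%). This was HNRNPA2B1 (ENSG00000122566), one of the hnRNP proteins that hold 7SK when it is away from P-TEFb, with a peak in a coding exon at chr7:26193577-26193678. A gene without a peak may be expressed too little to be seen, and no RNA level was available to judge this.

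In its number of peaks per list, 1, 2 and 3 for galactose, low and normal glucose, RN7SK had the same pattern as RACK1, a protein of the small ribosomal subunit, and no other of the 775 genes with a symbol that were compared. At a distance of 1 peak there were 11 genes, so this likeness over 3 lists is a weak one.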

How the data were processed

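CLIP-seq was done on 6 samples, 2 per condition. Per the study's methods, PureCLIP gave the crosslink sites, of which close ones were joined and lone ones extended. The submitters' processing notes name cutadapt, STAR and hg38, without versions. The authors deposited 1 joined list per condition, holding chromosome, start, end, Ensembl gene and symbol. No counts, scores, strands or p-values were deposited, so the depth is unknown, and an interval covers only the counting of peaks. The labels describe a total RNA extraction with rRNA removal, whereas the methods describe the antibody recovery. Handling of reads that fit several places, and the rule by which samples were joined, are not given in the sources used here. The study says that its mapping and peak calling parameters were placed in a public repository, which was not used here.

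Rows with the same coordinates, read as 1-based, were counted as 1 peak. Genes, strands and copies came from GENCODE release 44, and the span of RN7SK from the RefSeq table of GRCh38.p14. Each copy was aligned to RN7SK with Biopython 1.88 (global, end gaps free, match 2, mismatch -3, gap opening -5, gap extension -2), and 43 copies with under 50 aligned bases were left out. The place of a peak is the RN7SK base aligned with its middle, and sites up to 5 nt apart were put in 1 group. The 30-mers were counted on both strands of the main chromosomes. An overlap of 1 nt made 2 peaks shared. Python 3.11.15, NumPy 2.4.6, SciPy 1.17.1 and pysam 0.24.0 were used, and the alignment was tested on simulated copies.

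Named genes were all members, genes around them, pathway genes with a peak and the gene most like RN7SK in peaks per list. Members, gene lists and comparisons were chosen with earlier results of these data known. Alternatives were other counting, overlap, alignment and coordinate rules. The split of wide peaks into outermost sites, the counts without peaks annotated to a gene outside the family and the G share with each position once were added after seeing the data.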

Additional observations from a re-analysis of the deposited data

How the results depend on the processing

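No paired analysis was possible because the authors joined both samples of a condition into 1 list, and for the same reason no sample could be left out. The numbers of peaks (2, 5 and 15 in galactose, low and normal glucose) were the same by position in place of symbol, and became 2, 5 and 14 with peaks under 50 nt apart joined. Without recurrent peaks, judged over the whole peak with its flanks, they were 1, 3 and 6. Without peaks annotated to any other gene they were 0, 1 and 0, since every RN7SK peak carries a second entry of the same RNA. Without those annotated to a gene outside the family, added after seeing the data, they were 1, 3 and 3. Normal glucose then no longer stood above low glucose, since this step removed all its peaks on copies. Requiring the same start and end, low glucose peaks met by normal glucose fell to 2 of 5 and normal glucose peaks met by low glucose to 2 of 15. By the same gene at any place, normal glucose peaks met by galactose were 5 of 15 and by low glucose 7 of 15. By the same place on any copy these were 5 and 8. The places did not move by over 2 nt under other alignment scores or with the peak sequence alone aligned, and the 15 peaks near a peak on another copy stayed 15. With start and end both counted from 0, the share with a G before the middle was 14.3%. With all widths it was 59.1%, and with each position once it was 6 of 10 peaks. In all, 16 alternative values moved and 32 did not. The unknown depth of the lists limits each of these counts.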
